A study of Mus musculus with 37 samples.

Results

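Fat depots of the mouse carry a transcript signature of their position, and 10 genes of that signature were examined in brown adipose tissue (BAT): *Hoxc8*, *Hoxc9*, *Hoxc10*, *Hoxa5*, *Zic1*, *Lhx8*, *Tbx15*, *Tbx1*, *Tmem26* and *Tnfrsf9*. They were taken by gene symbol from the 24657 named genes of the array table, and each of the 10 had 1 probe set. Arrays were run for 35 BXD strains, recombinant inbred lines descended from C57BL/6J and DBA/2J, and for both parents, with 1 array per strain. All animals were chow-fed males, killed at 29 weeks of age after a night without food and perfused. RNA from about 5 mice of a strain was combined before hybridisation, so each value is a strain mean, there is no replicate within a strain, and the spread given is that between strains.

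The values are in rescaled units, since each array had been brought to mean 8 and SD 2. How far 1 unit corresponds to a doubling depends on the SD of the log2 values before that step, so every fold given here is nominal. Pairs of arrays correlated at *r* between 0.968 and 0.987 across probe sets. All 10 genes of a list for thermogenic brown fat lay above the background limit given below, against 47.2% of all probe sets. *Ucp1* (uncoupling protein 1, the heat-producing carrier of brown fat) was among them. Transcripts of other tissues were present as well. All 12 genes of the skeletal muscle list lay above background, and the mean of that list ranged over 3.71 units between strains. In the lymphocyte list 2 of 9 genes lay above background, and in the liver list 3 of 8. The liver list lay 5.28 units above its BXD mean in BXD70 and 3.25 units above it in DBA/2J, and values that rest on these arrays are marked where this matters.

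Hox genes encode homeodomain transcription factors that lay down position along the body axis, and adult fat cells and their precursors keep part of this code. In mice, *Zic1* and *Lhx8* are used as markers of the classical brown fat between the shoulder blades, whereas *Hoxc8*, *Hoxc9* and *Hoxc10* are used as markers of white and subcutaneous depots. *Tbx1*, *Tmem26* and *Tnfrsf9* are used as markers of beige adipocytes, which arise within white fat. *Tbx15* is expressed in brown and subcutaneous fat, and also in skeletal muscle.

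Detection was set against 1128 olfactory receptor probe sets, with a median level of 6.00 units and the upper 95th percentile at 7.94. Of the 10 depot genes, 5 had a mean above this 95th percentile, against 47.2% of all 41155 probe sets. These were *Zic1*, *Hoxa5*, *Hoxc8*, *Tbx15* and *Tbx1*, and each of them lay above the limit in all 35 BXD strains and in both parents. When the limit was raised to the olfactory receptors' 99th percentile, 8.82 units, *Tbx1* fell below it and 4 genes remained. A probe set below the limit may still belong to an expressed gene, and levels are not compared between probe sets.

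The markers of classical brown fat were split. *Zic1*, a zinc finger transcription factor, ranged from 8.81 in BXD101 through a median of 9.17 to 9.44 in BXD89, with a mean of 9.16 ± 0.15 (SD, n = 35 strains). It lay at 9.21 in C57BL/6J and 9.12 in DBA/2J, so that the parents fell in the middle of the strains. *Lhx8*, a LIM homeodomain factor, ranged from 7.31 in BXD69 through a median of 7.82 to 8.31 in BXD96, with a mean of 7.84 ± 0.21 (SD, n = 35). It passed the background limit in 11 of the 35 strains. *Lhx8* lay at 8.22 in C57BL/6J, above the limit, and at 7.56 in DBA/2J, below it.

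Of the posterior Hox markers, *Hoxc8* alone was detected. *Hoxc8* ranged from 8.003 in BXD85 through a median of 9.01 to 9.47 in BXD55, with a mean of 8.93 ± 0.34 (SD, n = 35). BXD85 stood 0.24 units below the next strain, BXD43 at 8.24, and close to the background limit. *Hoxc9* ranged from 7.10 through a median of 7.37 to 7.74, and *Hoxc10* from 7.004 through 7.29 to 7.71, and neither reached the limit in any strain or parent. In the RefSeq annotation of GRCm38.p6 these genes follow one another on chromosome 15, with *Hoxc10*, *Hoxc9* and *Hoxc8* at places 4, 5 and 6 in the row of 9 *Hoxc* genes. *Hoxa5*, on chromosome 6, ranged from 9.45 in BXD50 through a median of 9.81 to 10.23 in BXD90, with a mean of 9.85 ± 0.21 (SD, n = 35), and was far above the limit everywhere.

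The T-box genes were both detected. *Tbx15* ranged from 9.12 in BXD65 through a median of 10.20 to 11.004 in BXD83, with a mean of 10.15 ± 0.52 (SD, n = 35). *Tbx1* ranged from 8.28 in BXD81 through a median of 8.67 to 9.09 in BXD55, with a mean of 8.67 ± 0.17 (SD, n = 35). The beige markers on the cell surface were not detected. *Tmem26*, a transmembrane protein, ranged from 7.37 through 7.66 to 7.97 and passed the limit in 1 strain, BXD62. *Tnfrsf9*, the receptor CD137 that is also found on activated T cells, ranged from 6.89 through 7.42 to 7.78 and passed it in 0 strains.

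**Figure D1:**
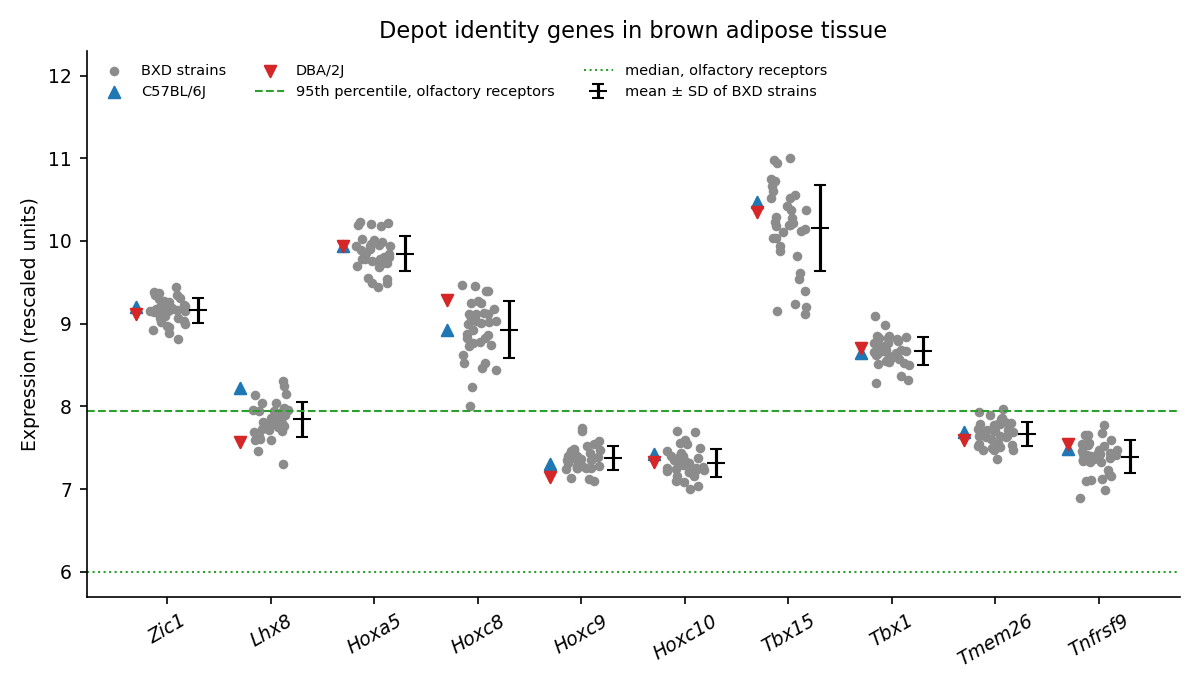
Expression of the 10 depot genes in rescaled units (y axis) for each gene (x axis): grey points are 35 BXD strains, black bars their mean ± SD, triangles the parents, and green lines the median and the 95th percentile of olfactory receptor means. *Zic1*, *Hoxa5*, *Hoxc8*, *Tbx15* and *Tbx1* lie above the dashed line at 7.94 in every strain, and *Tbx15* has the widest spread.

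The other Hox genes were read in the same way. Of 38 Hox genes examined, 16 had a mean above the background limit, and of the 34 that are not among the depot genes, 14 did, which is 41.2% and near the 47.2% of all probe sets. Numbering follows position along the body, with low paralog groups at the head end. Of the 22 genes examined in paralog groups 1 to 8, 15 lay above the limit, and of the 16 genes in groups 9 to 13, 1 did, namely *Hoxc13* at 8.24 ± 0.21 (SD, n = 35). In the *Hoxa* cluster the 6 genes from *Hoxa2* to *Hoxa7* were above the limit and the 4 from *Hoxa9* to *Hoxa13* below it. In the *Hoxc* cluster *Hoxc4* at 9.33, *Hoxc6* at 9.19 and *Hoxc8* were above it, whereas *Hoxc5* at 7.04 and *Hoxc9* to *Hoxc12* were below. *Hoxd4* and *Hoxd8* were the 2 *Hoxd* genes above it, and *Hoxb2* to *Hoxb5* the 4 *Hoxb* genes. These counts depend on the limit. At the stricter one of 8.82 units, *Hoxa2*, *Hoxa3*, *Hoxb2* to *Hoxb5*, *Hoxd4* and *Hoxc13* would lie below. The division at paralog group 8 was read from these values and was not tested.

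**Figure D2:**
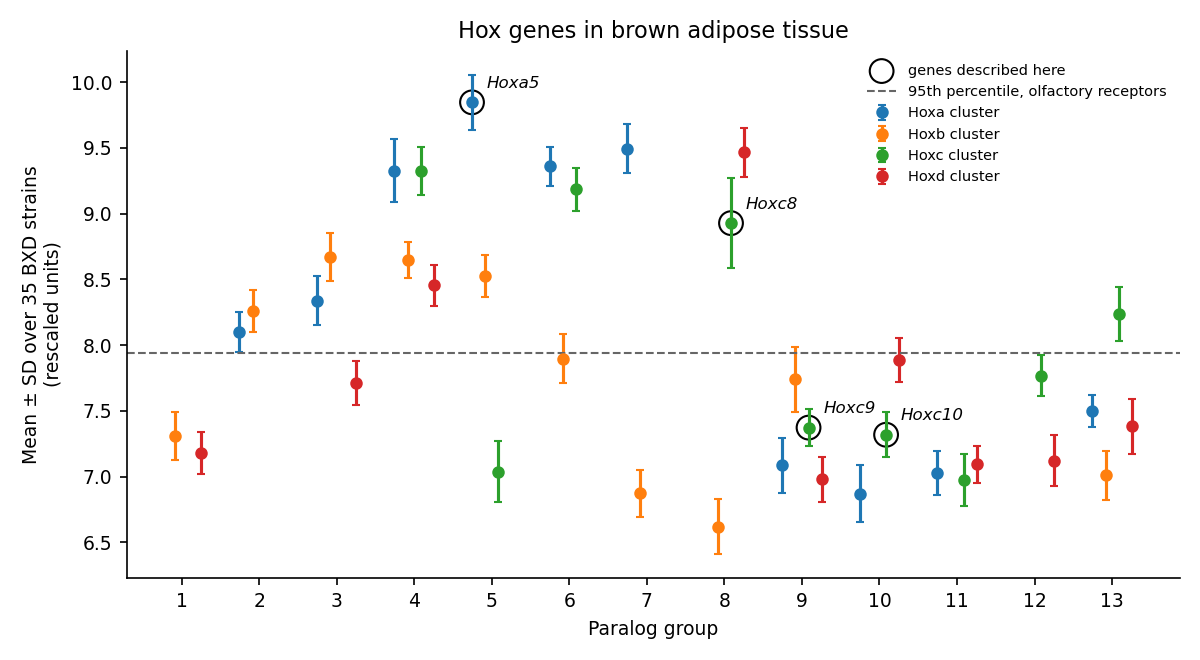
Mean ± SD over 35 BXD strains in rescaled units (y axis) of 38 Hox genes by paralog group (x axis) and cluster (colour), with the olfactory receptor limit of 7.94 dashed and the Hox genes among the depot markers ringed. *Hoxa5* and *Hoxc8* lie above the line and *Hoxc9* and *Hoxc10* below it, as do all genes of groups 9 to 13 other than *Hoxc13*.

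The spread of the depot genes between strains was read against that of the array background. Among olfactory receptor probe sets the median SD over strains was 0.24 units. Their 95th percentile, 0.37 units, served as the yardstick of array error, although dim probe sets can vary more than bright ones. Of the depot genes 1, *Tbx15*, had an SD above this 95th percentile, against 15.4% of all probe sets. Its SD of 0.52 exceeded that of 96.0% of the probe sets above background. *Hoxc8* followed with 0.34, which exceeded 85.1% of them. Of the other detected genes, *Hoxa5* had an SD of 0.21, above the median of probe sets above background, 0.192, whereas *Zic1* and *Tbx1*, at 0.15 and 0.17, lay below it. For the 5 genes with a mean below background it is not known whether the spread is that of a transcript.

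Transcript variance was also taken as the range over strains, as a nominal fold. Of the depot genes, 4 had a range of at least 0.807 units, the fold threshold of the study put on this scale, against 60.7% of all probe sets and 52.2% of those above background. *Tbx15* ranged over 3.69-fold, *Hoxc8* over 2.77-fold, *Lhx8* over 2.00-fold and *Tnfrsf9* over 1.85-fold. *Tbx1* at 1.747-fold and *Hoxa5* at 1.73-fold fell just short, but with each array centred on its median they passed, at 1.76-fold and 1.80-fold, and 6 genes did. *Zic1* ranged over 1.55-fold. For *Lhx8* and *Tnfrsf9*, whose means lay below the background limit, it is not known whether the range is that of a transcript. With the highest and the lowest strain of each gene left out, *Tbx15* at 3.53-fold and *Hoxc8* at 2.31-fold were the 2 genes past the threshold.

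**Figure D3:**
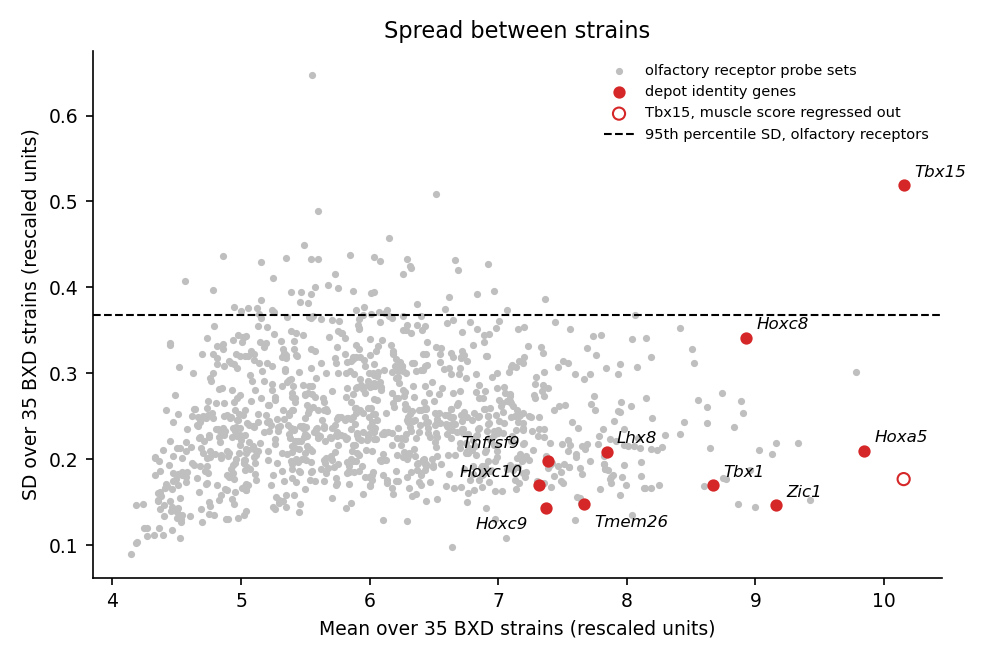
SD over 35 BXD strains (y axis) against the mean (x axis), both in rescaled units, for 1128 olfactory receptor probe sets (grey) and the 10 depot genes (red), with the 95th percentile of the olfactory receptor SDs dashed. *Tbx15* alone among the depot genes lies above the line at 0.37. The open circle shows it at 0.18 once the skeletal muscle score was regressed out, a drop that comes by construction of that fit.

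The parents were compared as DBA/2J minus C57BL/6J, from 1 array each and therefore without a test. None of the 10 depot genes passed the 95th percentile of the absolute difference over all probe sets, 0.77 units, which 5.0% pass by construction. The largest difference was that of *Lhx8*, -0.66 units, which exceeded 92.7% of probe sets, and 31 of the 35 BXD strains lay between the parents. The mean of *Lhx8* and its DBA/2J value lay below the background limit, so this may not be a difference of a transcript. *Hoxc8* was 0.36 units higher in DBA/2J, at 9.29 against 8.93, and exceeded 77.3% of probe sets. Only 4 strains lay above DBA/2J for *Hoxc8*, whereas 16 lay below C57BL/6J. *Tbx15* differed by -0.12 units and *Hoxa5* lay at 9.94 in both parents. The DBA/2J array is one of those with liver transcripts, and their part in these differences was not tested.

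*Tbx15* followed the skeletal muscle transcripts from strain to strain. The score for skeletal muscle was the mean of 12 centred genes, *Acta1* (skeletal actin), fast myosins such as *Myh4*, troponins, *Ckm* (muscle creatine kinase) and others. It ran from -2.48 in BXD65 to 1.23 in BXD97. Over the 35 strains *Tbx15* had *r* = 0.94 and rho = 0.93 with this score (permutation p = 1e-05 for each, two-sided, the smallest that 100000 permutations can give). In limma across all probe sets *Tbx15* rose by 0.56 ± 0.04 units (SE) per unit of the score (adjusted p = 2.72e-15), and it was number 73 of 41142 probe sets by p. Of the 10 depot genes, 1 was called, against 1.81% of all probe sets, or 1.5% counting those that rose with the score.

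The relation did not rest on a few strains. Without BXD65 and BXD95, which lay farthest from the median of the score, *r* was 0.95. Without the 5 strains with the lowest score it was 0.92 over 30 strains, a check chosen after the data had been seen. Each of the 12 muscle genes had its own *r* with *Tbx15* between 0.90 for *Myh2* and 0.95 for *Tnnc2*. The 7 strains with the lowest *Tbx15*, BXD65, BXD81, BXD85, BXD90, BXD95, BXD49 and BXD89, were the 7 with the lowest muscle score. In these strains *Tbx15* lay between 9.12 and 9.61, and in the other 28 strains at 9.82 or higher. Even the lowest of these values was well above the background limit. In combined tissue RNA, more cells of a type and more RNA per cell cannot be told apart, and neither can *Tbx15* transcripts of muscle and of fat.

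With the muscle score regressed out of every probe set, the SD of *Tbx15* was 0.18 units and its nominal range 1.54-fold. Its spread then lay below the 95th percentile of the olfactory receptors, 0.37, and 0 of the 10 depot genes exceeded it. For a gene already found to follow the score, this drop comes by construction of a fit that removes the score. The step was chosen after the data had been seen. *Hoxc8* kept an SD of 0.34 and a range of 2.52-fold. The other 34 Hox genes examined had a median *r* of 0.01 with the muscle score.

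**Figure D4:**
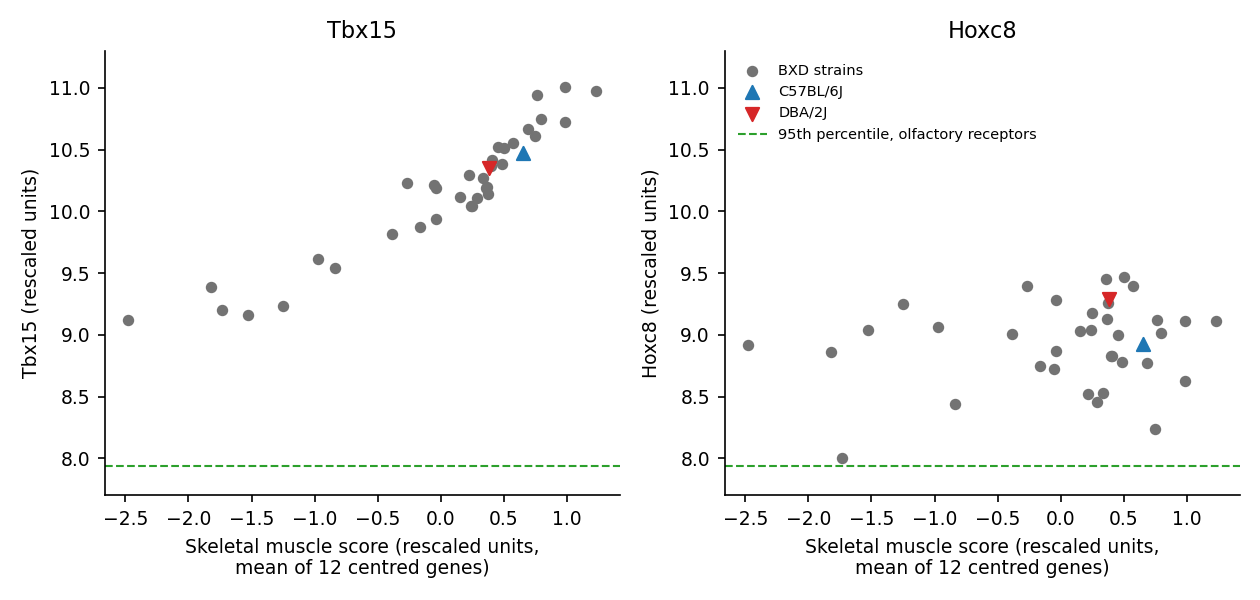
*Tbx15* (left) and *Hoxc8* (right) in rescaled units (y axes) against the skeletal muscle score in rescaled units (x axes) for 35 BXD strains (grey) and both parents (triangles), with the olfactory receptor limit of 7.94 dashed. *Tbx15* climbs with the score (*r* = 0.94), whereas *Hoxc8* is scattered (*r* = 0.16).

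*Tbx15* also followed the score of stromal and adipocyte progenitor genes (*Pdgfra*, *Dpt*, *Pi16*, *Cd34* and others). It had *r* = 0.53 and rho = 0.57 (permutation p = 0.00133 and 0.00059), and limma gave a slope of 1.001 ± 0.269 units (SE, adjusted p = 0.0234). It was the 1 depot gene called with this score, against 4.36% of all probe sets. The call was lost with the muscle score in the model (adjusted p = 0.403), with the white adipocyte score in the model (adjusted p = 0.289) and without BXD97 (adjusted p = 0.0666). *Tbx15* had *r* = 0.36 with the white adipocyte score (adjusted p = 0.208) and *r* = -0.35 with the thermogenic score (adjusted p = 0.272), which did not pass.

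*Hoxa5*, *Hoxc8* and *Zic1* had moderate correlations with the white adipocyte or stromal score that did not pass the threshold over all probe sets. The white adipocyte score was the mean of *Lep* (leptin), *Retn* (resistin), *Slc7a10*, *Agt*, *Nnat*, *Sncg* and *Npr3*. With it 0 depot genes were called in limma, against 4.77% of all probe sets. A permutation p of *r* under 0.05 was reached by 3 depot genes, and an unadjusted limma p under 0.05 by 7227 of 41147 probe sets. *Hoxa5* had *r* = -0.47 and rho = -0.48 with the white adipocyte score (permutation p = 0.00404 and 0.00368, limma adjusted p = 0.0683). Its *r* was -0.42 without BXD43 and BXD61. *Hoxa5* passed without BXD70, the array with liver transcripts (adjusted p = 0.0356), without BXD55 (adjusted p = 0.0436) and without BXD98 (adjusted p = 0.0421). It also passed when only probe sets above background were tested (adjusted p = 0.0344). With the muscle score in the model it did not (adjusted p = 0.156), and over the alternatives other than ranks its adjusted p went as high as 0.196. *Hoxc8* had the opposite sign, *r* = 0.40 and rho = 0.36 (permutation p = 0.0165 and 0.0355, limma adjusted p = 0.139). Its *r* was 0.24 without BXD43 and BXD61, and it passed only without BXD90 (adjusted p = 0.0494). *Zic1* had *r* = -0.43 and rho = -0.45 with the stromal score (permutation p = 0.00928 and 0.00673, limma adjusted p = 0.144).

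With the thermogenic score, the mean of *Ucp1*, *Cidea*, *Dio2*, *Ppargc1a*, *Elovl3*, *Cox7a1*, *Cox8b*, *Prdm16*, *Ebf2* and *Adrb3*, 0 of the 10 depot genes were called in limma, against 1.91% of all probe sets, and 1, *Tbx15*, had a permutation p of *r* under 0.05. Apart from *Tbx15*, the *r* of the depot genes with it lay between 0.04 and 0.23. An unadjusted limma p under 0.05 with the thermogenic score was reached by 6261 of 41142 probe sets. With the lymphocyte score 0 depot genes were called in limma, against 0.664% of all probe sets, and 2 had a permutation p of *r* under 0.05. An unadjusted limma p under 0.05 was reached by 5346 of 41141 probe sets. Only 2 of the 9 lymphocyte genes lay above background. *Hoxa5* had *r* = -0.50 (permutation p = 0.00224, limma adjusted p = 0.111) and *Tbx1* *r* = -0.43 (permutation p = 0.0106, limma adjusted p = 0.218) with it. *Tnfrsf9* had *r* = -0.12 with the lymphocyte score. With the liver score, which BXD70 dominates, 0 were called with or without that strain, against 0.62% of all probe sets. Over all 60 pairs of a depot gene and a score, 10 had a permutation p under 0.05 and 2 passed in limma. An unadjusted limma p under 0.05 was itself common over all probe sets. It was reached by 2759 of 41147 with the liver score, the fewest, and by 7227 of 41147 with the white adipocyte score, the most.

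**Figure D5:**
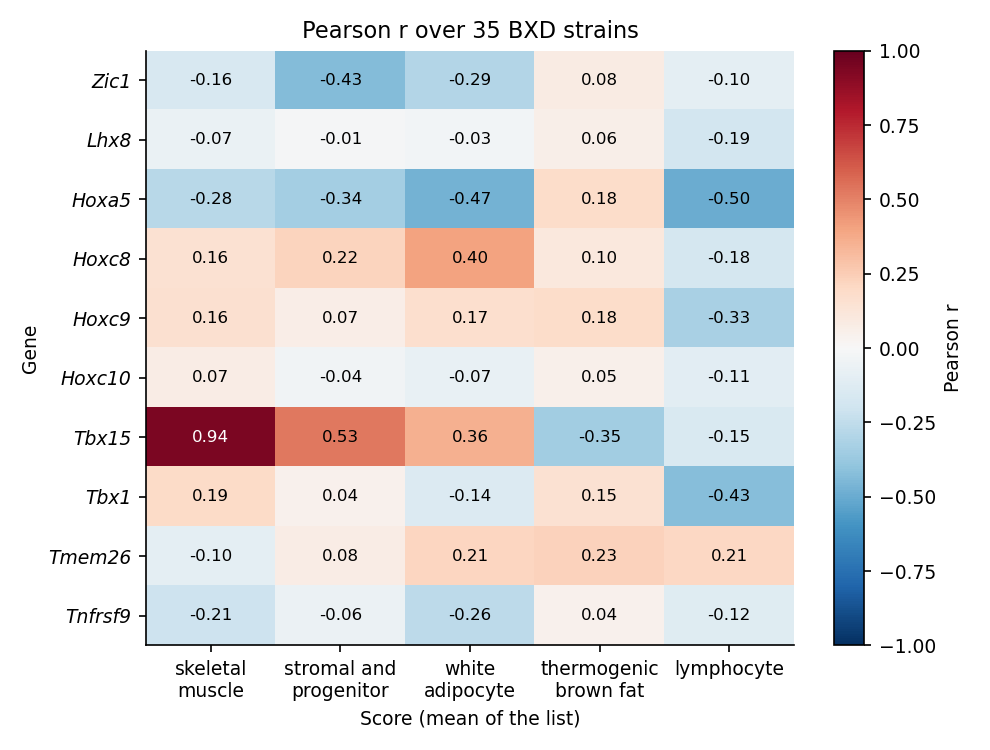
Pearson's *r* over 35 BXD strains between each depot gene (rows) and the mean of 5 marker lists (columns), with red positive and blue negative. *Tbx15* with skeletal muscle (0.94) and with the stromal list (0.53) are the 2 cells that passed in limma over all probe sets.

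No pair of depot genes passed the threshold over all probe sets. Each of them was used in turn as the covariate of a limma fit over 41154 probe sets, and of the 45 pairs of depot genes 0 passed. Their *r* lay between -0.32 and 0.38, 31 of the 45 were positive, and the lowest adjusted p was 0.483. In 35 of these pairs at least 1 gene lay below background, where covariation of transcripts may not be visible. Among the 10 pairs of detected genes *r* lay between -0.27 and 0.32, 8 were positive and 0 had a permutation p under 0.05. Pairs that missed the threshold are not shown to be unrelated. The highest *r* of the 45 was that of *Hoxc9* and *Tbx1* (*r* = 0.38, rho = 0.38, permutation p = 0.025 and 0.0246), the 1 pair with an unadjusted permutation p of *r* under 0.05. *Hoxc8* and its neighbour *Hoxc9* had *r* = 0.30 (permutation p = 0.0845), *Zic1* and *Lhx8* *r* = 0.02 and *Hoxc8* and *Zic1* *r* = 0.17.

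Each depot gene was also set against every other transcript in the table. With *Tbx15* as covariate 916 probe sets were called, 2.23% of those tested, 768 of them rising with it. With *Tmem26* as covariate 2 were called, 0.00486%, and with each of the other 8 depot genes 0.0%. The number at an unadjusted p under 0.05 ran from 1689 for *Hoxc10* to 5852 for *Tmem26*. Among 13523 genes above background, those most like *Tbx15* were *Slc25a12* (a mitochondrial aspartate-glutamate carrier, *r* = 0.97), *Pde4dip* (myomegalin, *r* = 0.97) and *Ldb3* (a protein of the muscle Z-disc, *r* = 0.97), each with an adjusted p of 2.41e-18. Most opposed was *Hibadh*, an enzyme of valine breakdown (*r* = -0.73, adjusted p = 0.000476).

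For the other detected genes the closest transcripts did not pass. *Hoxc8* was most like *Ngb* (*r* = 0.59, rho = 0.41), *Sgcd* (*r* = 0.57, rho = 0.54) and *Hoxa4* (*r* = 0.57, rho = 0.53). It was most opposed to *Nrbf2* (*r* = -0.63, adjusted p = 0.505). *Hoxa5* was most like *Suz12*, a subunit of the Polycomb complex that methylates histone H3 (*r* = 0.66, rho = 0.69, adjusted p = 0.184), followed by *Tsn* and *Fam82a1* (*r* = 0.63 each). It was most opposed to *Slurp1* (*r* = -0.70, adjusted p = 0.0776). *Zic1* was most like *4833442J19Rik* (*r* = 0.66, adjusted p = 0.189), *Ube4a* and *Amn1*, and most opposed to *Tubb2a* (*r* = -0.67, adjusted p = 0.189). *Tbx1* was most like *Atg13* (*r* = 0.62, adjusted p = 0.383), *4930583K01Rik* and *4932416H05Rik*, and most opposed to *Snx1* (*r* = -0.62). Of the transcripts named here, *4930583K01Rik* at a mean of 7.96, *Ngb* at 7.97 and *Slurp1* at 8.01 lay just above the background limit.

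Other genes used as depot markers were read beside the 10. Of 6 further markers of classical brown fat, 6 lay above background, of 7 of beige fat 6, and of 7 of white fat 4, against 47.2% of all probe sets. *Mpzl2*, a cell adhesion protein, was the 1 brown marker of 6 that passed with any score, and ran from 10.71 in BXD61 to 12.41 in BXD87. It fell with the white adipocyte score (*r* = -0.78, adjusted p = 6.4e-05), with the lymphocyte score (*r* = -0.70, adjusted p = 0.00337) and with the stromal score (*r* = -0.57, adjusted p = 0.012). Of all probe sets, 4.77%, 0.664% and 4.36% passed with these scores, in that order. The brown markers *Meox2* and *Epsti1* had the opposite sign with the lymphocyte score (*r* = 0.51 each, adjusted p = 0.0886 and 0.0919) and did not pass, and the median *r* of the 6 with the white adipocyte score was -0.04. Of 7 beige markers, 2 passed with the white adipocyte score, against 4.77% of all probe sets, and 2 with the stromal score, against 4.36%. The beige markers *Klhl13* and *Ear2* rose with the white adipocyte score (*r* = 0.72 and 0.63, adjusted p = 0.000571 and 0.00355) and with the stromal score (*r* = 0.84 and 0.69, adjusted p = 3.31e-07 and 0.000403). *Slc27a1*, a fatty acid transporter on the same list, had *r* = -0.24 and -0.34 with these scores and did not pass. With the lymphocyte score 2 of the 7 beige markers passed, against 0.664% of all probe sets. *Ear2*, a ribonuclease of eosinophils and macrophages, and *Sp100*, a nuclear body protein induced by interferon, rose with it (adjusted p = 0.0292 and 0.0226). *Slc27a1* had *r* = -0.27 with the lymphocyte score and did not pass. Of the 7 white markers, 1 passed with the muscle score, against 1.81% of all probe sets, and 3 with the stromal score, against 4.36%. *Irx5* rose with the muscle score (*r* = 0.72, adjusted p = 0.00051) and, with *En1* and *Sfrp2*, with the stromal score (adjusted p = 0.0247, 0.0318 and 0.00298). The median *r* of the 7 white markers was 0.17 with either score. *Wt1* had *r* = -0.19 with the muscle score and -0.14 with the stromal score, and *Irx3* had *r* = -0.04 with the stromal score. *En1*, at a mean of 7.92, lay just below the background limit, and *Epsti1* at 7.97 and *Wt1* at 7.95 lay just above it. At the stricter limit of 8.82 units, *Epsti1*, *Cited1*, *Cd40*, *Klhl13*, *Wt1*, *Sfrp2* and *Irx3* would also lie below. BXD61, the strain lowest in *Mpzl2* and highest in *Ear2*, also had the highest white adipocyte and stromal scores. BXD80, highest in *Sp100* and *Epsti1*, had the highest lymphocyte score. The relations of these further markers were not followed with single strains left out.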

How the data were processed

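BAT transcripts were measured on Affymetrix MoGene 2.0 arrays for 35 BXD strains, C57BL/6J and DBA/2J, 1 pool of about 5 mice each. The authors deposited 1 table of 41345 probe sets whose values are scores, with every array brought to mean 8 and SD 2. The submitters' processing notes name Affymetrix Expression Console, and the summary method and build are not given in the sources used here. Columns were assigned by strain name, and 190 array controls were left out. RefSeq (GRCm38.p6) matched all 10 symbols and served for gene order only.

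Each list score is the mean of its genes, centred over the BXD strains, by the probe set with the highest mean. Each was a continuous covariate in limma 3.58.1 (lmFit, eBayes; R 4.3.3), Benjamini-Hochberg adjusted over all probe sets outside the list, at 0.05. Pearson's r and Spearman's rho had 100000 two-sided permutations over 105 relations. In a test on simulated data the fit recovered strong slopes and missed most weaker ones. A gene that was not called may therefore still be related to a score. Other values came from Python 3.11.15 with scipy 1.17.1, numpy 2.4.6 and pandas 2.3.3, and plots from matplotlib 3.10.9. Alternatives were other scalings, both parents included, BXD70 or any single strain left out, dim probe sets left out, ranks, and a second score in the model.

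Genes named were the 10 depot genes, for each detected one the 3 most like and the 1 most opposed, and Hox genes above background. Listed markers that passed were named, with some of the same lists that did not. The depot genes and lists were chosen with earlier results of these data known. Some related genes are not reported here. Array precision is limited by the number of arrays.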

Additional observations from a re-analysis of the deposited data

How the results depend on the processing

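Levels, ranges and parental differences of the 10 genes, 110 values under the alternative scalings, with both parents, without BXD70 and with extreme strains left out, moved by less than 1 SD between strains in 109. The exception was *Lhx8*, whose range was 1.72-fold without its highest and lowest strain. Slopes were followed only for the 10 gene and score pairs with a permutation p of *r* under 0.05, mostly with 1 strain left out. All 437 of them kept their sign, which this choice of pairs made likely in advance. The other pairs were not followed in this way. The number of genes past the range threshold, 4, was 6 with each array centred on its median, 2 with extreme strains left out and 2 with the muscle score regressed out, and the number more variable than background, 1, was then 0, by construction of a fit that removes that score; this was chosen after the data had been seen. With the white adipocyte score the count, 0, was 1 without BXD70 and 1 with dim probe sets left out, where fewer probe sets were tested, and ranged from 0 to 1 without single strains. With the stromal score the count, 1, was 0 with the muscle score and 0 with the white adipocyte score as a second covariate, and ranged from 0 to 1 without single strains. The cause of these changes was not tested. Without single strains, the count stayed at 1 for muscle, and at 0 for the thermogenic, lymphocyte and liver scores and for pairs. The slope of *Tbx15* on the muscle score ran from 0.55 to 0.69 over these alternatives other than ranks, with adjusted p from 2.8e-16 to 2.65e-10. No paired analysis was possible because each strain has 1 array, and the numbers given to the strains only name them. Signal over background limits what can be said of the 5 genes below it.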

Other observations

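Relatives of the depot genes outside the lists were looked up after the data had been seen. Of 3 other *Zic* genes read, *Zic5* lay above the background limit at 8.21 ± 0.22 units (SD, n = 35 strains), in 31 of the 35 strains, whereas *Zic2* at 7.14 and *Zic4* at 7.32 lay below it in every strain. *Hotair*, the antisense RNA of the *Hoxc* cluster, lay at 7.52 ± 0.16 (SD, n = 35) and passed the limit in 0 strains.

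The 2 probe sets called with *Tmem26* as covariate were *Ring1*, a subunit of a Polycomb complex (*r* = -0.74, adjusted p = 0.0232), and a probe set with no gene name (*r* = -0.70, adjusted p = 0.0232). *Tmem26* itself lay below the background limit in 34 of the 35 strains, so it is not known whether its differences are those of a transcript.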
